A study of Mus musculus with 18 samples.

Results

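Collagen and basement membrane genes were followed in endothelial cells (ECs) sorted from mouse mammary tissue and from breast tumours. The set was defined by gene name and held every gene of the table named as a collagen chain, as a laminin alpha, beta or gamma chain, or as Nid1, Nid2 or Hspg2. It comprised 51 of the 16248 genes in the table, of which 9 encode fibrillar collagens, 19 encode the collagen IV, laminin, nidogen and perlecan chains of basement membranes, 2 encode multiplexins (Col15a1 and Col18a1), 7 encode FACIT collagens and 14 encode other collagens. FACIT collagens sit on the surface of fibrils instead of forming them. A further 7 genes of the GENCODE M21 annotation carry such names but lie outside the table (Col19a1, Col22a1, Col24a1, Col26a1, Col2a1, Col4a3 and Col6a4) and were not analysed here.

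The libraries came from 6 groups of 3, all of FVB mice. Normal ECs were taken from mammary fat pads of FVB mice of the wild type, whose age is not given in the sources used here. MMTV-PyMT ECs came from tumours that arose in females of genotype MMTV-PyMT, treated from 9 weeks of age, in which a mammary tumour virus promoter drives the polyoma middle T oncogene mainly in mammary epithelium. Implanted ECs came from tumours grown in the mammary fat pad of wild-type FVB females of 8 to 9 weeks, so that these ECs belong to a host without the transgene. The implanted cells were taken from MMTV-PyMT tumour nodules, trypsinised to remove fibroblasts, expanded in culture and injected in Matrigel, itself an extract of basement membrane. Each tissue was injected with PBS or with the STING agonist cGAMP and collected 3 h later, and live CD31+ CD45- cells were sorted. STING is the intracellular receptor of cyclic dinucleotides, and the libraries were made to compare the response of ECs of the 3 tissues to it. Each library of a group is described as a separate mouse.

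Basement membranes are thin sheets beneath epithelium and endothelium and around mural cells. Collagen IV forms their network from trimers in which, in most tissues, 2 alpha-1 chains join 1 alpha-2 chain. Laminins are trimers of 1 alpha, 1 beta and 1 gamma chain that bind cell receptors. Nidogens and perlecan link both networks. ECs make laminins with the alpha-4 or the alpha-5 chain, and the alpha-4 form is known from vessels that are still forming. Fibrillar collagens I, III and V build the tensile fibres of the stroma and are mainly products of fibroblasts.

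The deposited values are FPKM, fragments scaled to exon length and to a denominator of the library. Their steps gave whole reads for 99.99% of genes, and these added up to between 9184556 and 12200414 reads per library, a 1.33-fold range. For a gene with 1 kb of exon, 1 read equals 0.0753 to 0.1196 FPKM depending on the library. The denominator of the FPKM was not the total of recovered reads. Divided by that total it was 1.081 to 1.154 in normal PBS, 0.964 to 1.004 in implanted PBS and 0.735 to 0.830 in implanted cGAMP libraries. The same share of reads thus gave a higher FPKM in implanted cGAMP libraries. The spread between replicates given below includes counting error. All 10 endothelial markers looked for were present, and Pecam1, which encodes CD31, measured 258 to 292 FPKM in normal PBS, 138 to 177 in MMTV-PyMT PBS and 221 to 268 in implanted PBS libraries. The 10 markers summed to 1169 to 1315, 771 to 949 and 1109 to 1427 FPKM in the same order. At an adjusted p under 0.05, 6 were lower and 0 higher in MMTV-PyMT than in normal ECs. In implanted ECs 6 were higher and 1 lower than in MMTV-PyMT ECs, and 4 were higher and 3 lower than in normal ECs. The part of this in the results below was not tested. Markers of other cells were present too. The summed FPKM of 11 mural markers was 1125 to 1262 in normal PBS against 264 to 358 in MMTV-PyMT PBS and 295 to 333 in implanted PBS libraries. The 11 epithelial markers summed to 488 to 637, 1136 to 1244 and 543 to 773 FPKM in the same order, and the 11 fibroblast markers to 41.2 to 52.4, 35.8 to 53.6 and 32.5 to 36.2. In bulk RNA, fewer cells of a type and less RNA per cell cannot be told apart, and the part of these other cells in the results below was not tested except where a value is given.

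For the chain pairs on which much of the following turns, sequence around the start of the gene is shown, from RefSeq on the build GRCm38.p6, as 250 bases before and 50 bases from the first base on, 5′ to 3′ on the strand of the gene. Col4a1 (chr8:11312777-11313076, minus strand) and Col4a2 (chr8:11312555-11312854, plus strand) are neighbours that start head to head, and their first bases, 11312826 and 11312805, lie so close that both genes cover the same 22 bases and the windows share 78 bases. Lamb1 (chr12:31265043-31265342, plus strand) and Lamb2 (chr9:108479612-108479911, plus strand) encode alternative laminin beta chains whose levels went opposite ways. Col1a2 (chr6:4505368-4505667, plus strand) stands for the fibrillar genes. Capitals mark the CCAAT box (CCAAT, or ATTGG on the other strand), the GC box GGGCGG (or CCGCCC) and the TATA box TATAAA (or TTTATA).
Col4a1: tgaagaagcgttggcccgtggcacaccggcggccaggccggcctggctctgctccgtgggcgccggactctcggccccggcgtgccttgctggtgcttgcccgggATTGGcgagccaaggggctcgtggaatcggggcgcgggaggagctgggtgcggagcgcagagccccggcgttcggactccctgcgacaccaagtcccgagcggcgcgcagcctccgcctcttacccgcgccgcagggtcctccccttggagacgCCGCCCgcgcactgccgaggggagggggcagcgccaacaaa
Col4a2: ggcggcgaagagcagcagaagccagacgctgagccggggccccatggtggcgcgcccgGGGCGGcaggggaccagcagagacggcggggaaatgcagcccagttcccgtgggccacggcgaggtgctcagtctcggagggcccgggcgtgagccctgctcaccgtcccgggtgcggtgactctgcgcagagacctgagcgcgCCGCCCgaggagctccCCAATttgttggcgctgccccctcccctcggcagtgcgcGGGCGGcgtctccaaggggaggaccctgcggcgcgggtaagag
Lamb1: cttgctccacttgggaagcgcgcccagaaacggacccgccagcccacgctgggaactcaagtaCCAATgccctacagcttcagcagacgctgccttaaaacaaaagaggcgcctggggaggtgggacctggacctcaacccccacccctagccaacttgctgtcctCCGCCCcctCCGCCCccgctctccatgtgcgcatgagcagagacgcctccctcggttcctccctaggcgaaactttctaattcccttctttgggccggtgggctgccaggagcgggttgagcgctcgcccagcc
Lamb2: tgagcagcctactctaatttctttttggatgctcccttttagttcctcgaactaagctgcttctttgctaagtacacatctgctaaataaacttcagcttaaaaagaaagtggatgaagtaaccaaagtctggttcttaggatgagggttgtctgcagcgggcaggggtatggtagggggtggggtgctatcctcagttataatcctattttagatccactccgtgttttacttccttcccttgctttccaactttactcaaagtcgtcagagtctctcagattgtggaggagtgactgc
Col1a2: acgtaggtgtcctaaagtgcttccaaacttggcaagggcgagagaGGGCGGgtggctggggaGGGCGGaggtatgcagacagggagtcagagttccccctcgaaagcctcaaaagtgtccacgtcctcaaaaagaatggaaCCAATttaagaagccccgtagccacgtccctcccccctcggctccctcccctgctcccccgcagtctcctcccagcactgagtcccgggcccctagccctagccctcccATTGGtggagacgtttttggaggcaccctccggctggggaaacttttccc
The CCAAT box appeared in 1 copy in Col4a1, Col4a2 and Lamb1 and in 2 copies in Col1a2, and none of the 3 motifs was found in the Lamb2 window. GC content was 74% for Col4a1, 73.7% for Col4a2, 63.7% for Lamb1, 61% for Col1a2 and 44% for Lamb2, against a median of 52.7% over all windows. A window was found for 39 of the 51 genes. The GC box was present in 62.8% of their 43 windows, in 69.2% of the 13 windows of basement membrane genes and in 85.7% of the 7 windows of fibrillar collagens, against 35.7% of all 32841 windows. The CCAAT box stood in 32.6% of these 43 windows and in 37.4% of all, and the TATA box in 11.6% and 13.6%. A match describes letters and is not shown to be a working site. The sources used here do not say whether the reads were counted by strand, so reads in the bases common to Col4a1 and Col4a2 could have been lost or credited to either.

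Basement membrane genes outweighed fibrillar collagens in every library, and the summed FPKM of both classes was higher in tumour ECs than in normal ECs under PBS. The 19 basement membrane genes summed to 840.4, 1012 and 900.5 FPKM in the normal PBS libraries, to 1842, 1716 and 1622 in MMTV-PyMT PBS and to 3001, 3454 and 2761 in implanted PBS. The 9 fibrillar collagens summed to 122, 153 and 142 FPKM in normal PBS, to 172, 261 and 224 in MMTV-PyMT PBS and to 372, 336 and 345 in implanted PBS. For both sums the 3 tissues followed each other without overlap, with implanted ECs highest. Single fibrillar genes did not all share this order. Col1a1 kept it, while Col3a1 overlapped between the 3 tissues. The ratio of the basement membrane sum to the fibrillar sum, by contrast, did not keep the tissues apart, at 6.34 to 6.88 in normal PBS, 6.58 to 10.7 in MMTV-PyMT PBS and 8.01 to 10.3 in implanted PBS libraries, so that MMTV-PyMT libraries overlapped with both others. Each sum leans on one gene, and without Col4a1 and Col1a1 the ratio under PBS was 6.58 ± 0.434 (SD, n = 3) for normal, 8.60 ± 2.11 for MMTV-PyMT and 12.8 ± 1.92 for implanted ECs. The 51 genes together took 1.17% to 1.37% of the reads in normal PBS, 1.93% to 2.09% in MMTV-PyMT PBS and 2.99% to 3.46% in implanted PBS libraries.

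**Figure D1:**
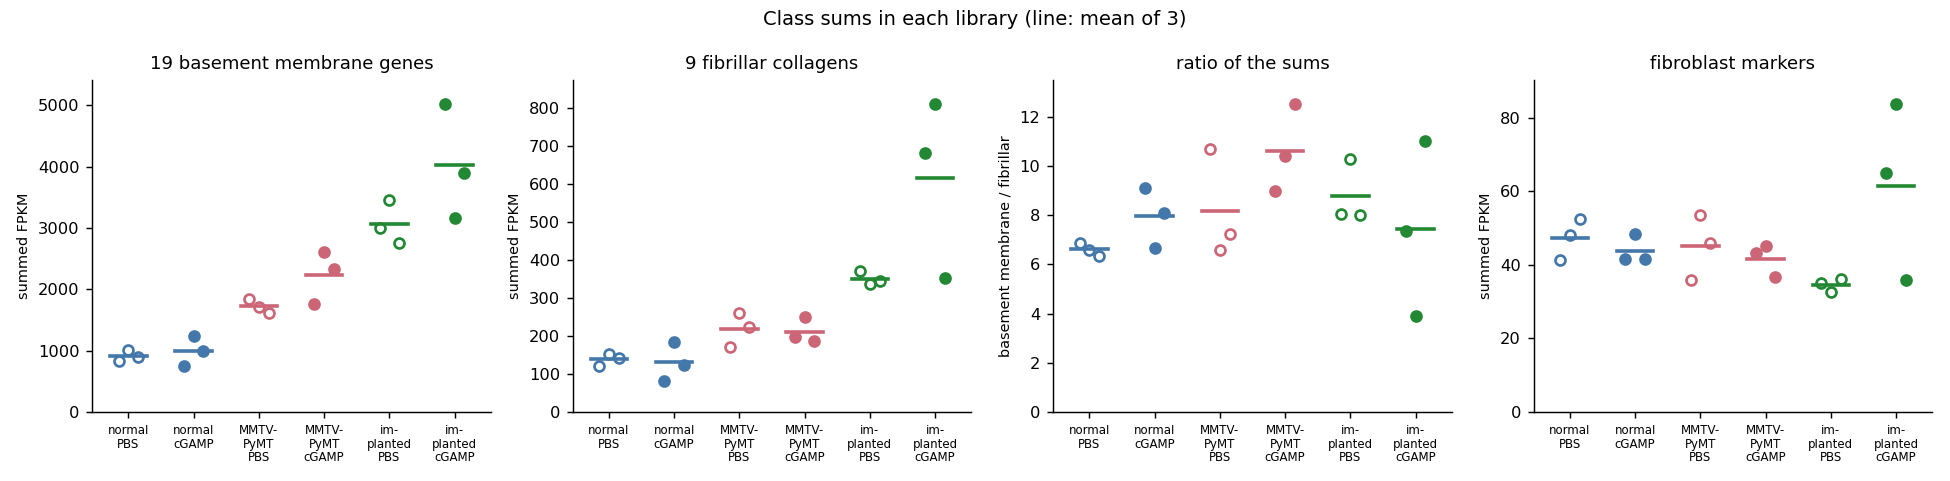
Summed FPKM of the 19 basement membrane genes and of the 9 fibrillar collagens, the ratio of the sums, and the summed FPKM of 11 fibroblast markers, with 1 point per library (open, PBS; filled, cGAMP) and a line at the mean of 3. Under PBS both sums climb from normal (840.4 to 1012 and 122 to 153 FPKM) to implanted ECs (2761 to 3454 and 336 to 372), while in implanted cGAMP ECs the fibrillar sum (353 to 809.7) and the fibroblast markers (35.8 to 83.6) spread widely.

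A gene was said to have passed when limma gave an adjusted p by the method of Benjamini and Hochberg (BH) under 0.05 over all 13983 genes tested, and to be called when it also differed at least 2-fold on the scale log2(FPKM + 1). Of the 51 genes 44 were tested. The other 7, Col10a1, Col11a2, Col20a1, Col25a1, Col4a4, Col6a5 and Col6a6, did not reach 1 FPKM in 3 libraries. Col27a1, Col28a1, Lamc3 and Col8a2 reached 1 FPKM in only 2, 3, 3 and 4 of the groups. They were tested only through the groups where they were higher. The counts below include them, though their differences between groups lend these counts no weight. Under PBS, 19 of the 44 were called between MMTV-PyMT and normal ECs, 12 higher and 7 lower, where 13.9% of all genes tested were called, 6.24% higher and 7.67% lower. Between implanted and normal ECs the count was 24, with 17 higher and 7 lower, against 11.5% of all genes tested, 5.74% higher and 5.71% lower. Between implanted and MMTV-PyMT ECs it was 14, with 11 higher and 3 lower, against 7.33%, 4.28% higher and 3.05% lower, and scaling by total reads made this 7 higher and 5 lower. In each of these comparisons 32 of the 44 passed, where 56.5%, 48.7% and 45.5% of all genes tested passed. These 3 comparisons share their PBS libraries. Over all 9 fibrillar collagens in the table the median log2 change was 0.17, 0.60 and 0.71 in that order, and over all 19 basement membrane genes it was 0.48, 0.48 and 0.46, with the median of all genes of the table within 0.03 of 0.

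**Figure D2:**
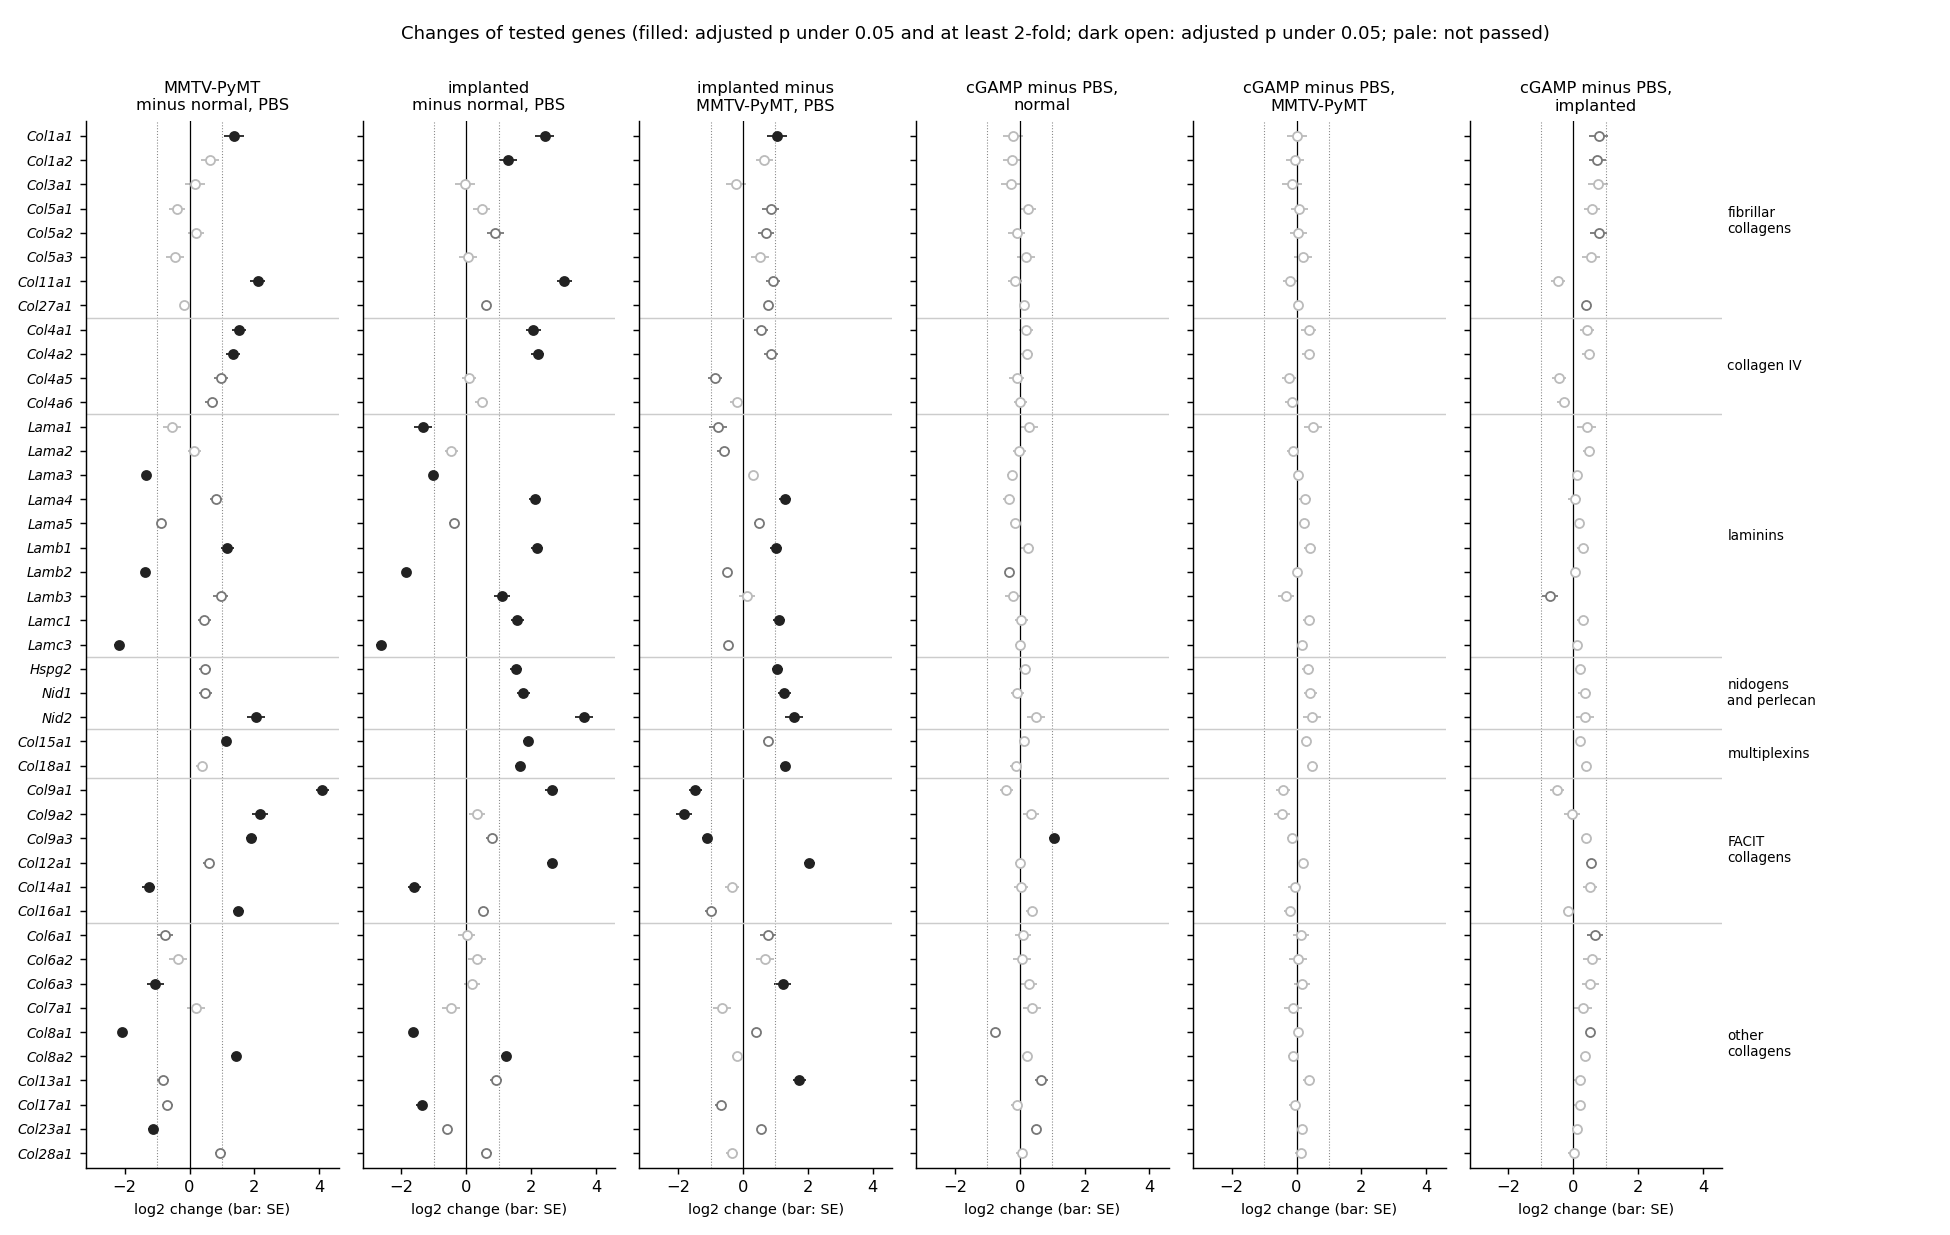
The log2 change of FPKM + 1 of 43 of the 44 tested genes (rows, grouped by class) in 6 comparisons (panels), as a point with a bar of 1 SE. Filled points mark genes called, dark open points genes that passed without reaching 2-fold, and pale points genes that did not pass. Tissue comparisons hold 19, 24 and 14 filled points, and the cGAMP comparisons hold 1, 0 and 0.

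Collagen IV was carried by Col4a1 and Col4a2, the chains found in nearly every basement membrane, and both were higher in ECs of either tumour. Col4a1 measured 198, 264 and 221 FPKM in normal PBS, 687, 656 and 611 in MMTV-PyMT PBS and 940.3, 1075 and 857 in implanted PBS libraries. Col4a2 measured 147, 188 and 164 FPKM in normal PBS, 453, 416 and 395 in MMTV-PyMT PBS and 752, 861 and 693 in implanted PBS libraries. No library of one tissue reached into the range of another for either gene. Col4a1 rose by 1.52 (SE 0.22, limma BH-adjusted p = 2.47e-05) on the log2 scale from normal to MMTV-PyMT ECs and by 2.07 (adjusted p = 1.16e-06) from normal to implanted ECs. For Col4a2 the same changes were 1.34 (SE 0.21, limma BH-adjusted p = 5.6e-05) and 2.20 (adjusted p = 3.81e-07). Between the tumours, Col4a2 was higher in implanted ECs by 0.86 (limma BH-adjusted p = 0.00331). In 1 of 26 alternative settings, quantile normalization, Col4a2 no longer passed (0.51, limma BH-adjusted p = 0.0527). The difference of Col4a1 between the tumours was 0.55 (limma BH-adjusted p = 0.0493). It no longer passed in 17 of 26 alternative settings, among them leaving out any 1 of the 3 MMTV-PyMT PBS or 3 implanted PBS libraries (0.46 to 0.63, limma BH-adjusted p up to 0.153) and quantile normalization (0.10), with a range of 0.00528 to 0.727 over all settings.

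The balance of these chains differed by tissue more tightly than their levels did. The ratio of Col4a1 to Col4a2 FPKM was 1.35, 1.40 and 1.35 in normal PBS, 1.52, 1.58 and 1.54 in MMTV-PyMT PBS and 1.25, 1.25 and 1.24 in implanted PBS libraries. Within each tissue the cGAMP libraries lay close by, at 1.34 to 1.37, 1.55 to 1.56 and 1.20 to 1.23. The ratios are given as a description, with no test. Col4a1 made up 23.6% to 26.1% of the summed basement membrane FPKM in normal PBS, 37.3% to 38.2% in MMTV-PyMT PBS and 31.0% to 31.3% in implanted PBS libraries.

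The X-linked pair Col4a5 and Col4a6, which encodes chains of more specialised basement membranes, did not follow Col4a1 and Col4a2. Col4a5 measured 9.24, 9.75 and 8.83 FPKM in normal PBS, 16.4, 20.5 and 20.6 in MMTV-PyMT PBS and 11.9, 7.61 and 10.8 in implanted PBS libraries. It was thus highest in MMTV-PyMT ECs, and normal and implanted libraries overlapped. Col4a6 had means of 2.54, 4.68 and 3.98 FPKM in the same order. Both passed as higher in MMTV-PyMT than in normal ECs and neither passed between implanted and normal ECs. Col4a4 stayed between 0.134 and 0.694 FPKM in all 18 libraries.

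**Figure D3:**
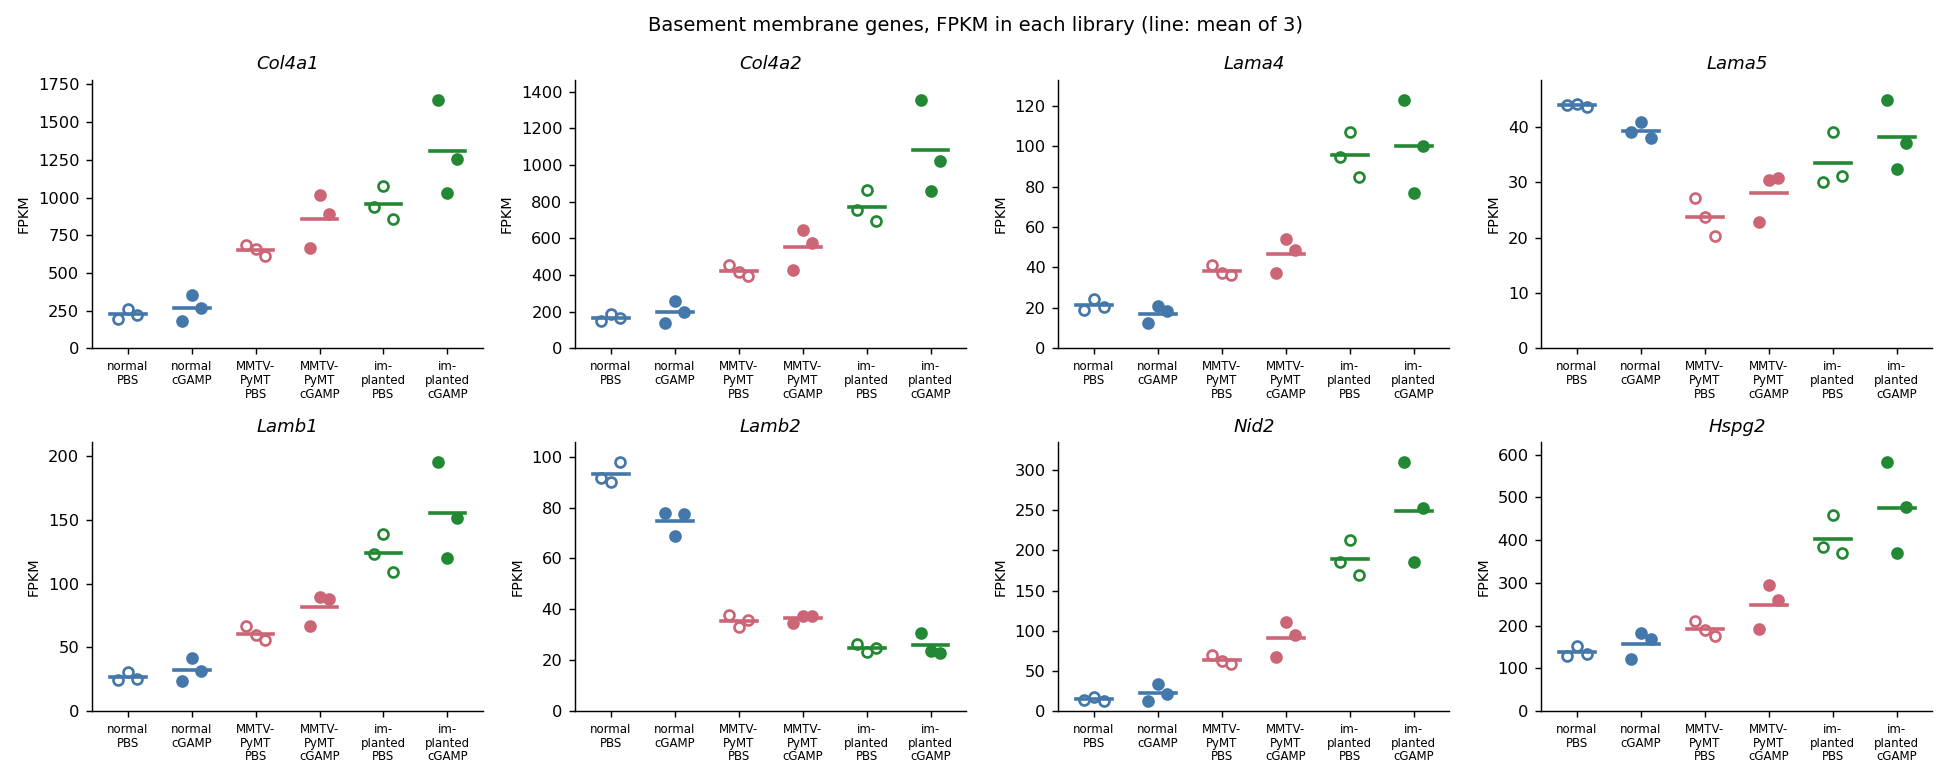
FPKM of 8 basement membrane genes, with 1 point per library (open, PBS; filled, cGAMP) and a line at the mean of 3. Lamb2 (90.0 to 97.8 FPKM in normal PBS against 23.3 to 26.5 in implanted PBS) and Lama5 (43.5 to 44.2 against 30.0 to 39.1) run against the other 6 panels, such as Lamb1 (24.1 to 30.3 against 109 to 139).

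Among laminin alpha chains, tumour ECs held more Lama4 and less Lama5 than normal ECs. Lama4 measured 19.1, 24.3 and 20.7 FPKM in normal PBS, 41.1, 37.5 and 36.3 in MMTV-PyMT PBS and 94.7, 107 and 84.6 in implanted PBS libraries. Lama5 measured 43.9, 44.2 and 43.5 FPKM in normal PBS, 27.2, 23.8 and 20.2 in MMTV-PyMT PBS and 30.0, 39.1 and 31.1 in implanted PBS libraries. Neither gene overlapped between normal and tumour ECs. Lama4 rose by 0.82 (SE 0.19, limma BH-adjusted p = 0.00154) in MMTV-PyMT and by 2.11 (adjusted p = 1.89e-07) in implanted ECs, and it differed by 1.29 (adjusted p = 5.3e-05) between the tumours. Lama5 fell by 0.87 (SE 0.14, limma BH-adjusted p = 6.47e-05) in MMTV-PyMT ECs. In implanted ECs the change of Lama5 was -0.39 (limma BH-adjusted p = 0.0264), which no longer passed in 5 of 26 alternative settings, those without normal PBS library 1, 2 or 3 or without implanted PBS library 1 or 3 (log2 change -0.32 to -0.40, adjusted p 0.000851 to 0.104 over all settings). Lama4 contributed 22.4% to 26.8% of laminin alpha FPKM in normal PBS, 51.0% to 54.0% in MMTV-PyMT PBS and 67.3% to 70.4% in implanted PBS libraries, and the ratio of Lama4 to Lama5 moved from 0.487 ± 0.0579 (SD, n = 3) to 1.63 ± 0.149 and 2.87 ± 0.243. The other alpha chains were scarce or lower in tumours. Lama3, an alpha chain of epithelial laminins, was called lower in both tumours, at 14.4, 13.9 and 14.5 FPKM in normal PBS against 6.52, 4.83 and 4.07 in MMTV-PyMT PBS and 7.09, 5.99 and 6.57 in implanted PBS libraries. Lama1 had means of 5.54, 3.48 and 1.60 FPKM and was called lower only in implanted against normal ECs, and Lama2 stayed between 1.21 and 3.44 FPKM in all libraries.

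The beta chains exchanged places. Lamb2, which is typical of mature vessel walls and of the kidney glomerulus, led in normal ECs with 91.7, 90.0 and 97.8 FPKM under PBS, and it measured 37.7, 33.2 and 35.8 in MMTV-PyMT PBS and 26.5, 23.3 and 24.8 in implanted PBS libraries. Lamb1, the widespread beta chain, measured 24.1, 30.3 and 25.1 FPKM in normal PBS, 66.4, 60.0 and 55.6 in MMTV-PyMT PBS and 123, 139 and 109 in implanted PBS libraries. The order of the tissues was thus opposite for the 2 genes, with no overlap between tissues. Lamb2 fell by 1.36 (SE 0.10, limma BH-adjusted p = 2.05e-08) in MMTV-PyMT ECs and by 1.87 (adjusted p = 7.63e-10) in implanted ECs, and was lower in implanted than in MMTV-PyMT ECs, at -0.50 (adjusted p = 0.000611). Lamb1 rose by 1.17 (SE 0.19, limma BH-adjusted p = 0.000101) and 2.18 (adjusted p = 1.92e-07), and differed by 1.01 (adjusted p = 0.000571) between the tumours. The ratio of Lamb1 to Lamb2 went from 0.286 ± 0.0447 (SD, n = 3) in normal to 1.71 ± 0.136 in MMTV-PyMT and 5.01 ± 0.846 in implanted PBS ECs. The sum of the 3 beta chains meanwhile was 122 to 129 FPKM in normal PBS, 105 to 117 in MMTV-PyMT PBS and 154 to 175 in implanted PBS libraries. Lamb3, a partner of Lama3 in epithelial laminin, measured 6.63, 6.62 and 6.20 FPKM in normal PBS against 12.4, 15.4 and 13.1 in MMTV-PyMT PBS and 13.1, 12.4 and 20.8 in implanted PBS libraries, and passed as higher in both tumours. Mural markers summed to 1125 to 1262 FPKM in normal PBS against 264 to 358 in MMTV-PyMT PBS and 295 to 333 in implanted PBS libraries. Like Lamb2, the sum was thus lower in both tumours than in normal ECs. Between the tumours the sums overlapped, and 4 of 11 mural markers passed as higher and 0 as lower in implanted ECs, where Lamb2 was lower. The part of mural cells in the fall of Lamb2 was not tested.

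Lamc1, the gamma chain of most laminins, led its kind in every library. It measured 67.9, 79.2 and 70.0 FPKM in normal PBS, 109, 94.6 and 96.4 in MMTV-PyMT PBS and 215, 259.6 and 186 in implanted PBS libraries. Implanted ECs stood well apart, and Lamc1 rose by 1.58 (SE 0.19, limma BH-adjusted p = 4.97e-06) over normal and by 1.12 (adjusted p = 0.000216) over MMTV-PyMT ECs. The step from normal to MMTV-PyMT ECs was 0.46 (limma BH-adjusted p = 0.0493), which no longer passed in 15 of 26 alternative settings (adjusted p from 0.00168 to 0.134), among them leaving out any 1 of the 6 libraries compared (0.40 to 0.53) and the fit with a replicate block (0.46, adjusted p = 0.0635). Lamc3 was the reverse, at 6.01, 6.06 and 6.53 FPKM in normal PBS, 0.309, 0.803 and 0.724 in MMTV-PyMT PBS and 0.0879, 0.167 and 0.249 in implanted PBS libraries. It fell by 2.17 (SE 0.15) in MMTV-PyMT and by 2.63 in implanted ECs, values that understate the change because 1 was added to FPKM. As said above, Lamc3 was tested only through the groups where it was higher, so no p-value is given for it.

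**Figure D4:**
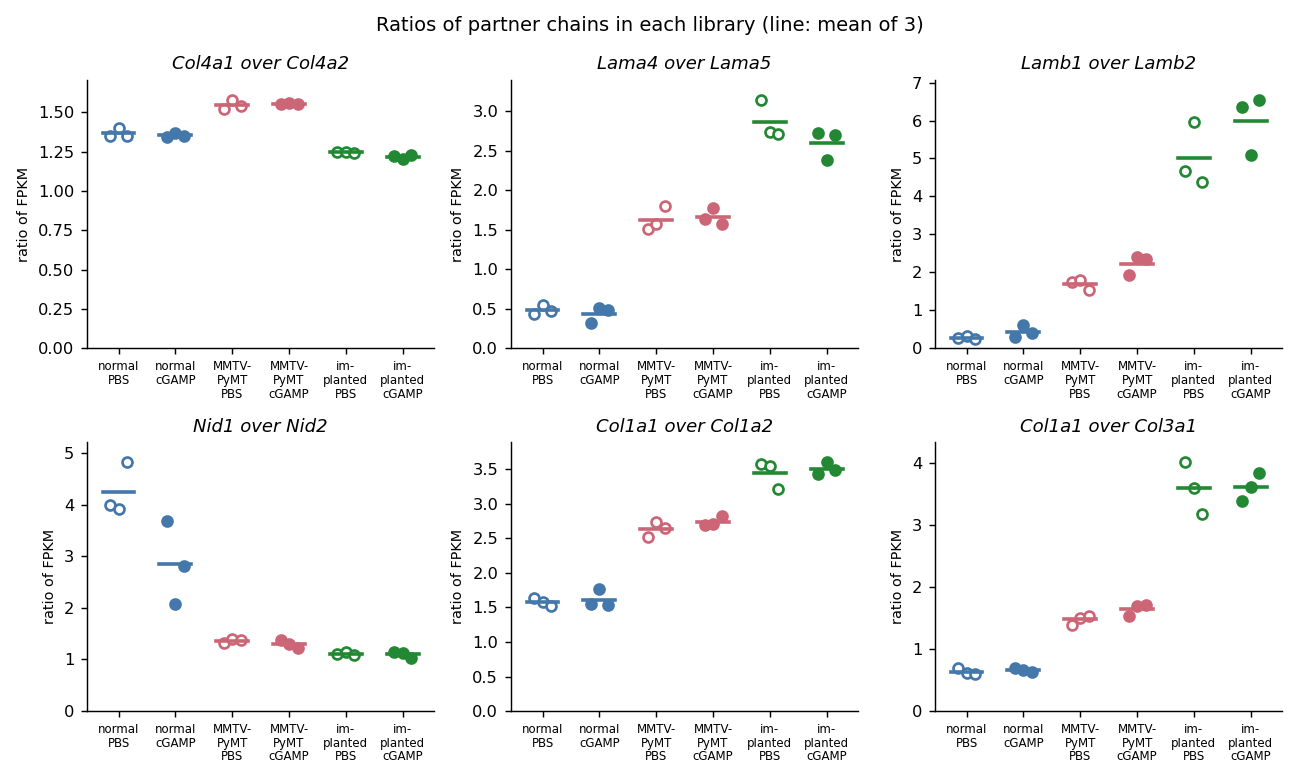
Ratios of FPKM between partner chains, with 1 point per library (open, PBS; filled, cGAMP) and a line at the mean of 3. Lamb1 over Lamb2 climbs from 0.257 to 0.337 in normal PBS to 4.39 to 5.97 in implanted PBS libraries, and Nid1 over Nid2 drops from 3.91 to 4.82 to 1.09 to 1.14, while PBS and cGAMP libraries of a tissue lie close together for Col4a1 over Col4a2.

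The linkers between the networks were all higher in tumour ECs, Nid2 by far the most. Nid2 measured 13.4, 17.6 and 12.6 FPKM in normal PBS, 69.2, 61.8 and 59.1 in MMTV-PyMT PBS and 186, 213 and 169 in implanted PBS libraries. Nid1 measured 53.5, 68.9 and 60.9 FPKM, then 91.3, 86.1 and 81.0, then 205, 242 and 183 in the same order. Both genes kept the tissues apart, and Nid2 came level with Nid1 only in tumours, where the ratio of Nid1 to Nid2 was 1.32 to 1.39 in MMTV-PyMT PBS and 1.09 to 1.14 in implanted PBS libraries against 3.91 to 4.82 in normal PBS libraries. Nid2 rose by 2.06 (SE 0.28, limma BH-adjusted p = 1.33e-05) in MMTV-PyMT and by 3.62 (adjusted p = 3.72e-08) in implanted ECs, and differed by 1.56 (adjusted p = 0.000315) between the tumours. Nid1 rose by 1.76 (SE 0.20, limma BH-adjusted p = 2.35e-06) in implanted ECs and differed by 1.27 (adjusted p = 0.000102) between the tumours. Hspg2, which encodes the heparan sulphate proteoglycan perlecan, measured 128, 152 and 134 FPKM in normal PBS, 211, 189.7 and 176 in MMTV-PyMT PBS and 383, 458 and 369 in implanted PBS libraries. It rose by 1.54 (SE 0.18, limma BH-adjusted p = 4.92e-06) in implanted ECs and differed by 1.06 (adjusted p = 0.000266) between the tumours. In MMTV-PyMT against normal ECs the changes were 0.49 (limma BH-adjusted p = 0.0428) for Nid1 and 0.48 (adjusted p = 0.0374) for Hspg2. Nid1 no longer passed in 9 of 26 alternative settings (adjusted p from 0.00245 to 0.144 by limma), among them those without normal PBS library 1 or 3 or without any 1 MMTV-PyMT PBS library (0.40 to 0.54). Hspg2 no longer passed in 6 (adjusted p from 0.00252 to 0.114 by limma), among them those without normal PBS library 1 or 3 or MMTV-PyMT PBS library 1 or 2 (0.41 to 0.48).

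The multiplexins, collagens of the vascular basement membrane zone whose C-terminal fragments include endostatin, moved with the linkers. Col15a1 measured 49.5, 52.3 and 54.1 FPKM in normal PBS, 115, 122 and 109.9 in MMTV-PyMT PBS and 194, 216 and 181 in implanted PBS libraries. Col18a1 measured 41.5, 46.1 and 42.1 FPKM, then 60.6, 57.3 and 50.7, then 126, 166 and 128 in the same order. In neither gene did libraries of different tissues overlap. Col15a1 rose by 1.14 (SE 0.15, limma BH-adjusted p = 1.4e-05) in MMTV-PyMT and by 1.90 (adjusted p = 6.76e-08) in implanted ECs, and differed by 0.76 (adjusted p = 0.00085) between the tumours. For Col18a1 the values were 0.37 (limma BH-adjusted p = 0.0579, not passed), 1.66 (adjusted p = 4.11e-07) and 1.29 (adjusted p = 1.15e-05).

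The fibrillar collagens did not all move alike. In MMTV-PyMT against normal ECs 2 of the 8 tested passed as higher and 0 as lower. In implanted ECs 5 passed as higher and 0 as lower, both against normal and against MMTV-PyMT ECs. Of all genes tested 56.5%, 48.7% and 45.5% passed, in either direction. Col27a1, tested only through the groups where it was higher, is among the 8. Of the 8 tested, 2 were called higher in MMTV-PyMT than in normal ECs (Col1a1 and Col11a1) and 3 in implanted than in normal ECs (Col1a1, Col1a2 and Col11a1). Between the tumours 1 was called higher in implanted ECs (Col1a1), and none was called lower in any of these comparisons. Col1a1, the main chain of collagen I, measured 31.3, 36.8 and 33.4 FPKM in normal PBS, 67.5, 111 and 92.9 in MMTV-PyMT PBS and 205, 177 and 175 in implanted PBS libraries. Col1a2, its partner in the same trimer, measured 19.2, 23.3 and 22.0 FPKM, then 26.7, 40.7 and 35.1, then 57.4, 49.9 and 54.4 in the same order. Neither gene overlapped between tissues, but their balance changed, with a ratio of Col1a1 to Col1a2 of 1.52 to 1.63 in normal PBS, 2.52 to 2.73 in MMTV-PyMT PBS and 3.22 to 3.57 in implanted PBS libraries. Col1a1 rose by 1.37 (SE 0.30, limma BH-adjusted p = 0.000984) in MMTV-PyMT and by 2.42 (adjusted p = 5.73e-06) in implanted ECs, and differed by 1.05 (adjusted p = 0.00855) between the tumours. Col1a2 rose by 1.29 (SE 0.27, limma BH-adjusted p = 0.000902) in implanted ECs, while its difference was 0.63 (adjusted p = 0.0575) in MMTV-PyMT ECs and 0.66 (adjusted p = 0.0563) between the tumours.

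Col3a1, the chain of collagen III, stayed within one range across the tissues. It measured 45.2, 59.6 and 56.2 FPKM in normal PBS, 48.5, 74.0 and 60.5 in MMTV-PyMT PBS and 51.0, 49.3 and 55.3 in implanted PBS libraries, and the 3 tissues overlapped. Its log2 changes were 0.17 (SE 0.31, limma BH-adjusted p = 0.657), -0.04 (adjusted p = 0.929) and -0.21 (adjusted p = 0.603), for MMTV-PyMT against normal, implanted against normal and implanted against MMTV-PyMT ECs. The ratio of Col1a1 to Col3a1 was therefore 0.594 to 0.693 in normal PBS, 1.39 to 1.54 in MMTV-PyMT PBS and 3.17 to 4.01 in implanted PBS libraries. Col5a1, a collagen V chain that helps to start fibrils, had means of 10.1, 7.55 and 14.3 FPKM and passed only between the tumours, at 0.85 (SE 0.25, limma BH-adjusted p = 0.0121). Col11a1, a minor fibrillar chain best known from cartilage, measured 1.46, 1.42 and 1.04 FPKM in normal PBS, 8.10, 7.58 and 11.3 in MMTV-PyMT PBS and 16.6, 16.3 and 20.6 in implanted PBS libraries. It rose by 2.10 (SE 0.22, limma BH-adjusted p = 1.3e-06) in MMTV-PyMT and by 3.03 (adjusted p = 2.65e-08) in implanted ECs. The fibroblast markers summed to 41.2 to 52.4 FPKM in normal PBS, 35.8 to 53.6 in MMTV-PyMT PBS and 32.5 to 36.2 in implanted PBS libraries, and of the 11 markers 3 passed as higher and 4 as lower between implanted and normal ECs. Single markers of the list differed, and Lrrc15, a gene of activated fibroblasts, had means of 0.276, 3.84 and 6.22 FPKM in the same order of tissues as Col1a1, Mfap4 had 0.855, 3.92 and 2.65, and Dcn had 11.2, 6.84 and 2.25. The part of fibroblasts in the fibrillar results was not tested.

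All 3 genes of collagen IX, a FACIT collagen of cartilage and some epithelia, were highest in MMTV-PyMT ECs. Col9a1 measured 2.24, 2.28 and 1.55 FPKM in normal PBS, 42.2, 54.6 and 55.9 in MMTV-PyMT PBS and 17.2, 16.0 and 19.8 in implanted PBS libraries. Col9a2 measured 4.82, 6.02 and 4.08 FPKM, then 26.5, 24.7 and 26.1, then 5.74, 7.04 and 6.80, and Col9a3 measured 2.97, 3.22 and 2.16, then 12.9, 12.4 and 14.0, then 5.33, 4.98 and 6.12 in the same order. MMTV-PyMT libraries stood above all others for each of these genes under PBS, and normal and implanted libraries overlapped only for Col9a2. From normal to MMTV-PyMT ECs Col9a1 rose by 4.10 (SE 0.21, limma BH-adjusted p = 1.09e-09), Col9a2 by 2.18 (adjusted p = 2.56e-06) and Col9a3 by 1.91 (adjusted p = 9.87e-08). The step of Col9a1 was the widest among the 44 genes in that comparison. From MMTV-PyMT to implanted ECs they fell by 1.47 (limma BH-adjusted p = 4.78e-05), 1.83 (adjusted p = 2.9e-05) and 1.12 (adjusted p = 4.02e-05). These were the only 3 of the 44 genes called lower in implanted than in MMTV-PyMT ECs. The epithelial markers had the same order, with 7 of 11 called higher and 1 lower in MMTV-PyMT than in normal ECs and summed FPKM of 488 to 637, 1136 to 1244 and 543 to 773. Sox10, a marker of Schwann cells that some mammary epithelial cells also express, measured 10.1 to 15.4, 42.6 to 50.8 and 20.9 to 26.9 FPKM, and the part of such cells in the collagen IX result was not tested.

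**Figure D5:**
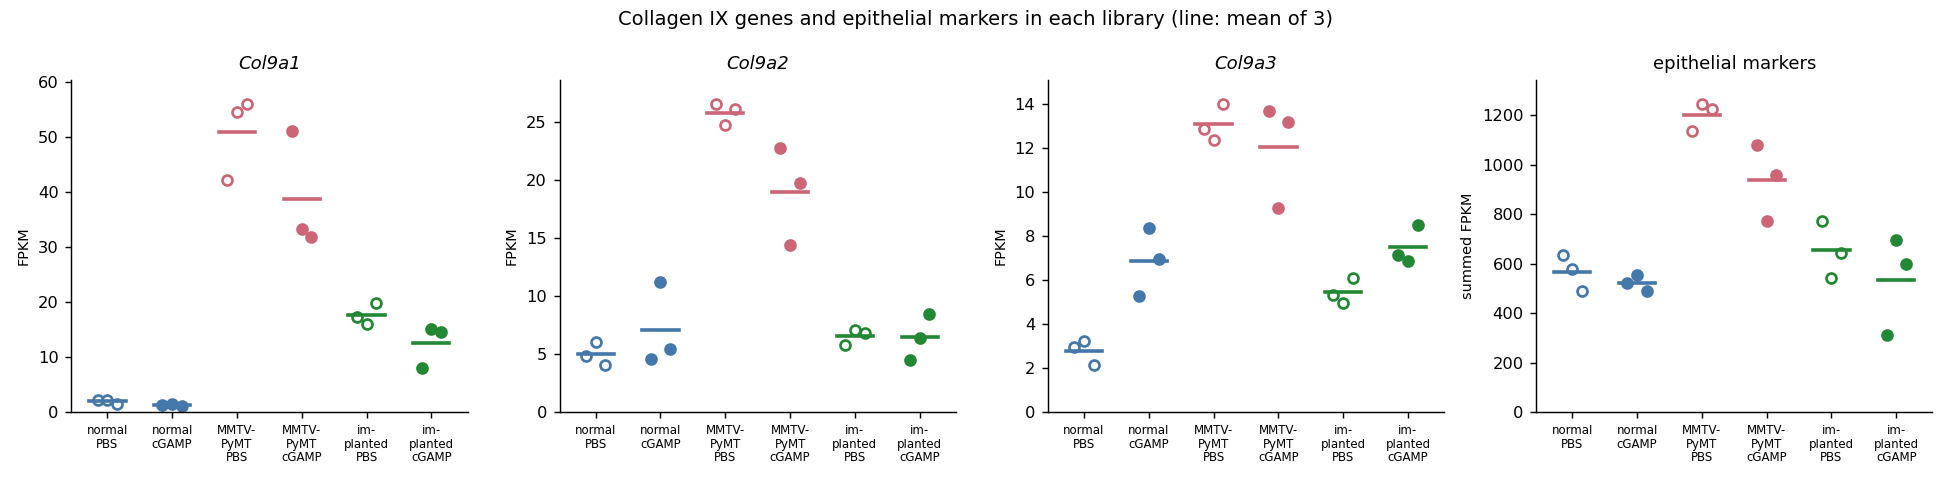
FPKM of the 3 collagen IX genes and summed FPKM of 11 epithelial markers, with 1 point per library (open, PBS; filled, cGAMP) and a line at the mean of 3. MMTV-PyMT PBS libraries are highest in each panel (42.2 to 55.9 FPKM for Col9a1, 1136 to 1244 for the markers), and Col9a3 is higher under cGAMP in normal ECs (5.26 to 8.37 against 2.16 to 3.22).

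The other FACIT collagens differed among themselves. Col12a1, a partner of collagen I fibrils, marked implanted ECs, at 2.94, 4.21 and 3.45 FPKM in normal PBS, 5.25, 6.59 and 5.60 in MMTV-PyMT PBS and 26.4, 25.9 and 29.3 in implanted PBS libraries. It rose by 2.64 (SE 0.16, limma BH-adjusted p = 2.7e-09) over normal and by 2.05 (adjusted p = 1.35e-07) over MMTV-PyMT ECs. Col14a1 was called lower in both tumours, from a mean of 8.88 ± 0.605 FPKM (SD, n = 3) to 3.16 ± 0.553 and 2.30 ± 0.625. Col16a1 was highest in MMTV-PyMT ECs, at 25.2 ± 1.73 FPKM against 8.21 ± 0.820 in normal and 12.3 ± 1.28 in implanted ECs, and rose by 1.51 (SE 0.18, limma BH-adjusted p = 4.55e-06) from normal to MMTV-PyMT ECs.

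Among the remaining collagens tested, Col8a1 had the largest fall from normal ECs to either tumour. Col8a1 and Col8a2 encode the short chains of collagen VIII, which lies beneath endothelium and in the cornea. Col8a1 measured 22.6, 23.3 and 21.1 FPKM in normal PBS, 5.05, 4.71 and 3.99 in MMTV-PyMT PBS and 7.05, 6.27 and 5.96 in implanted PBS libraries. Normal libraries thus stood far above both tumours, and Col8a1 fell by 2.07 (SE 0.13, limma BH-adjusted p = 5.23e-09) and by 1.65 (adjusted p = 3.82e-08). The 11 mural markers had median log2 changes of -2.28 and -2.21 in the same comparisons, and the part of mural cells in this fall was not tested. Col8a2 went the other way, from 0.144 to 0.170 FPKM in normal PBS to 1.46 to 2.79 in MMTV-PyMT PBS and 1.64 to 1.76 in implanted PBS libraries. Its rise was 1.42 (SE 0.15) in MMTV-PyMT ECs, with no p-value given because it was tested only through the groups where it was higher. The collagen VI genes encode beaded filaments found around many cells, and Col6a1 and Col6a3 passed as lower in MMTV-PyMT than in normal ECs, while neither passed between implanted and normal ECs. Col6a3 measured 31.6, 40.1 and 34.3 FPKM in normal PBS, 15.3, 19.8 and 14.5 in MMTV-PyMT PBS and 38.0, 41.5 and 39.3 in implanted PBS libraries, and was higher in implanted than in MMTV-PyMT ECs by 1.22 (SE 0.25, limma BH-adjusted p = 0.00115). Col13a1, a transmembrane collagen, had means of 3.45, 1.52 and 7.45 FPKM and was higher in implanted than in MMTV-PyMT ECs by 1.74 (SE 0.19, limma BH-adjusted p = 3.23e-06). Col17a1, a hemidesmosome protein of basal epithelium, had means of 5.56, 3.15 and 1.54 FPKM and was called lower only in implanted against normal ECs.

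In normal ECs cGAMP changed few of these genes within 3 h. With cGAMP 5 of the 44 passed and 1 of these was called, where 31.9% of all genes tested passed and 3.7% were called. Col9a3 measured 5.26, 8.37 and 6.97 FPKM with cGAMP against 2.97, 3.22 and 2.16 with PBS, and rose by 1.05 (SE 0.16, limma BH-adjusted p = 0.000146). Without normal PBS library 3 its change was 0.92 and without normal cGAMP library 2 it was 0.91, which passed (limma BH-adjusted p = 0.0013 and 0.00109) but were under 2-fold, so that no gene was called, against 3.48% and 3.81% of all genes tested. Col8a1 measured 14.0, 10.5 and 14.4 FPKM with cGAMP against 22.6, 23.3 and 21.1 with PBS, and fell by 0.75 (SE 0.13, limma BH-adjusted p = 0.000385). Lamb2 measured 77.8, 68.7 and 77.6 FPKM against 91.7, 90.0 and 97.8, and fell by 0.32 (SE 0.10, limma BH-adjusted p = 0.0204), which no longer passed without normal PBS library 3 (-0.28, adjusted p = 0.0784) or without normal cGAMP library 2 (-0.26, adjusted p = 0.0857). Neither Col8a1 nor Lamb2 overlapped between the treatments. Col13a1 and Col23a1, transmembrane collagens, also passed as higher, with means of 6.09 against 3.45 FPKM and of 6.18 against 3.98 FPKM. Of the fibrillar and collagen IV genes none passed.

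In MMTV-PyMT ECs none of the 44 genes passed by limma after cGAMP, where 12% of all genes tested passed and 2.56% were called. At an unadjusted p under 0.05 there were 4 genes, all higher, against 26.5% of all genes tested, and voom on recovered reads passed 1 gene and called 0. Col4a1 measured 665, 1014 and 889.5 FPKM with cGAMP against 687, 656 and 611 with PBS, so that 1 cGAMP library lay among the PBS libraries, and its change was 0.37 (SE 0.22, limma BH-adjusted p = 0.291). Col18a1 came nearest to the threshold, at 63.1, 87.2 and 90.7 FPKM against 60.6, 57.3 and 50.7, with a change of 0.49 (SE 0.16, limma BH-adjusted p = 0.0539).

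In implanted ECs 4 of the 8 fibrillar collagens tested passed as higher after cGAMP, and collagen I rose unevenly between libraries. Of these 4, Col27a1 did not exceed 2.27 FPKM and reached 1 FPKM in only 6 libraries of 2 groups. For 2 of the 8 genes all 3 cGAMP libraries stood above all PBS libraries. Of the 44 genes 8 passed, 7 higher and 1 lower, where 39.1% of all genes tested passed, 20.3% higher and 18.8% lower, and none was called, where 7.22% of all were. At an unadjusted p under 0.05 there were 17 genes, 15 of them higher, against 47.4% of all genes tested, and voom passed 9 and called 0. Those that passed as higher were Col1a1, Col1a2, Col5a2, Col27a1, Col12a1, Col6a1 and Col8a1, and Lamb3 passed as lower. Col1a1 measured 370.0, 456 and 191 FPKM with cGAMP against 205, 177 and 175 with PBS, and Col1a2 measured 108, 127 and 54.7 against 57.4, 49.9 and 54.4. Libraries 1 and 2 thus stood far above PBS, and library 3 lay within the PBS range. The changes were 0.78 (SE 0.30, limma BH-adjusted p = 0.0472) for Col1a1 and 0.74 (SE 0.27, adjusted p = 0.0383) for Col1a2. Col3a1 had the same shape, at 109, 126 and 49.8 FPKM against 51.0, 49.3 and 55.3, and did not pass (0.76, limma BH-adjusted p = 0.0627). Across these uneven libraries the ratio of Col1a1 to Col1a2 was 3.43 to 3.60 with cGAMP and 3.22 to 3.57 with PBS, and that of Col1a1 to Col3a1 was 3.39 to 3.83 and 3.17 to 4.01.

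Markers of other cells were also uneven between these libraries. The fibroblast markers had the same order as Col1a1. They summed to 65.0, 83.6 and 35.8 FPKM with cGAMP against 35.0, 32.5 and 36.2 with PBS, and 8 of 11 passed as higher. The 11 mural markers summed to 557, 398 and 252 FPKM against 295, 333 and 319, with libraries 1 and 2 above and library 3 below the PBS range. The 6 leukocyte markers of the table summed to 62.4, 290.1 and 60.9 FPKM against 51.9, 30.3 and 84.1, so that library 2, the highest for Col1a1, stood apart. The part of these cells in the rise was not tested. Without implanted cGAMP library 3, 6 genes were called, all higher, against 8.39% of all genes tested. They were Col1a1 (1.14, limma BH-adjusted p = 0.0034), Col1a2 (1.10, adjusted p = 0.00153), Col3a1 (1.16, adjusted p = 0.00307), Col5a2 (1.13, adjusted p = 0.000528), Col6a1 (1.07, adjusted p = 0.000196) and Col6a2 (1.01, adjusted p = 0.00109). Without implanted cGAMP library 1 the change was 0.67 (limma BH-adjusted p = 0.144) for Col1a1 and 0.62 (adjusted p = 0.134) for Col1a2, and without library 2 it was 0.52 (adjusted p = 0.192) and 0.51 (adjusted p = 0.163),. Under scaling by total reads, which lowers the median change of all genes tested from -0.014 to -0.248, Col1a1 changed by 0.46 (limma BH-adjusted p = 0.183) and Col1a2 by 0.43 (adjusted p = 0.171),. Under quantile normalization the changes were 0.24 (limma BH-adjusted p = 0.495) and 0.30 (adjusted p = 0.365). Each also no longer passed without any 1 of the implanted PBS libraries (0.74 to 0.85 and 0.69 to 0.79). Over the 26 alternative settings they failed to pass in 17 and in 8, with limma adjusted p from 0.0034 to 0.495 and from 0.00153 to 0.365.

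Of the basement membrane genes Lamb3 alone passed after cGAMP in implanted ECs. Col4a1 measured 1649, 1029 and 1257 FPKM with cGAMP against 940.3, 1075 and 857 with PBS, and Nid1 measured 352, 212 and 259 against 205, 242 and 183. Library 1 stood highest and library 2 lay within the PBS range in both genes. The change of Col4a1 was 0.43 (SE 0.22, limma BH-adjusted p = 0.127) and that of Col4a2 was 0.47 (SE 0.21, adjusted p = 0.0868), and neither passed. Endothelial markers had the same order, with sums of 1874, 1131 and 1355 FPKM with cGAMP against 1226, 1427 and 1109 with PBS, and their part was not tested. The median change of the 19 basement membrane genes was 0.22, and -0.02 under scaling by total reads, while that of the 9 fibrillar collagens was 0.58 and 0.28. Of the recovered reads the 19 genes took 2.10% to 3.02% with cGAMP and 2.32% to 2.79% with PBS. The 9 fibrillar collagens took 0.248% to 0.546% and 0.275% to 0.311%. The basement membrane sum divided by the fibrillar sum was 7.36, 3.90 and 11.0 in the cGAMP libraries against 8.06, 10.3 and 8.01 with PBS, so the cGAMP libraries spanned the PBS range on both sides. Lamb3 measured 5.53, 12.1 and 9.73 FPKM against 13.1, 12.4 and 20.8, and the epithelial markers summed to 312, 697 and 597 against 773, 543 and 644. Col8a1 measured 10.3, 10.3 and 8.26 FPKM with cGAMP against 7.05, 6.27 and 5.96 with PBS, without overlap.

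Whether the response to cGAMP differed between tissues was tested as an interaction. Between MMTV-PyMT and normal ECs 2 of the 44 genes passed and 1 was called, where 8.37% of all genes tested passed and 1.75% were called. Col9a3 responded less in MMTV-PyMT than in normal ECs, by -1.18 (SE 0.22, limma BH-adjusted p = 0.00586), with 13.7, 9.29 and 13.2 FPKM after cGAMP against 12.9, 12.4 and 14.0 with PBS in MMTV-PyMT ECs. Col8a1, which fell in normal ECs, differed by 0.81 (SE 0.18, limma BH-adjusted p = 0.0125). Between implanted and normal ECs Col8a1 alone passed and was called, at 1.26 (SE 0.18, limma BH-adjusted p = 0.00019), where 18.6% of all genes tested passed and 4.68% were called. Without normal cGAMP library 2 the called genes were 5 (4.58% of all genes tested) and without implanted cGAMP library 3 they were also 5 (5.79%), Col1a1, Col1a2, Col3a1, Col5a2 and Col8a1 in each case, and under scaling by total reads none was called. Between implanted and MMTV-PyMT ECs none of the 44 genes passed by limma, where 11.1% of all genes tested passed and 2.47% were called, and 4 genes, all higher, had an unadjusted p under 0.05, against 24.7% of all genes tested, while voom passed 0. Without implanted cGAMP library 3 there were 3 called genes in that comparison (3.19% of all genes tested), Col1a2 (1.16, limma BH-adjusted p = 0.0235), Col3a1 (1.31, adjusted p = 0.0262) and Col5a2 (1.06, adjusted p = 0.0199),.

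Genes that make collagen, such as prolyl and lysyl hydroxylases, chaperones, propeptide cleaving enzymes and lysyl oxidases, were mostly higher in implanted ECs. Of 27 tested, 17 passed as higher and 2 as lower between implanted and normal ECs under PBS, and 21 as higher and 2 as lower between implanted and MMTV-PyMT ECs. Between MMTV-PyMT and normal ECs 6 passed as higher and 10 as lower. Of all genes tested 48.7%, 45.5% and 56.5% passed in these comparisons, so that the last count is near the share of all genes. The median change of the 27 was 0.65, 0.60 and -0.05 in the order just given, with that of all genes tested at 0.01, -0.01 and 0.02. P4ha1, a catalytic subunit of prolyl 4-hydroxylase, measured 17.9, 17.3 and 23.5 FPKM in normal PBS, 5.79, 6.64 and 5.59 in MMTV-PyMT PBS and 23.4, 32.8 and 41.2 in implanted PBS libraries. It fell by 1.54 (SE 0.18, limma BH-adjusted p = 3.25e-06) from normal to MMTV-PyMT ECs and was higher in implanted than in MMTV-PyMT ECs by 2.22 (adjusted p = 2.35e-07). Bmp1, the enzyme that removes C-terminal propeptides, rose from 4.54, 4.62 and 4.52 FPKM in normal PBS to 17.6, 20.4 and 18.7 in implanted PBS libraries, by 1.83 (SE 0.13, limma BH-adjusted p = 1.47e-08). Between implanted and normal ECs Plod2, a lysyl hydroxylase, rose by 1.82 (SE 0.21, limma BH-adjusted p = 3.05e-06).

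After cGAMP 3 of the 27 genes were called in implanted ECs, all higher, where 7.22% of all genes tested were called. The lysyl oxidase-like enzyme Loxl3 measured 15.5, 16.7 and 11.6 FPKM with cGAMP against 4.21, 5.20 and 4.99 with PBS, and Loxl4 measured 16.6, 11.3 and 9.94 against 4.83, 4.40 and 3.24. Unlike Col1a1, Col1a2 and Col3a1, both were higher in all 3 cGAMP libraries, and they rose by 1.42 (SE 0.15, limma BH-adjusted p = 2.08e-06) and 1.38 (SE 0.15, adjusted p = 2.18e-06). Tram2, a translocation protein that takes part in collagen I synthesis, rose by 1.21 (SE 0.16, limma BH-adjusted p = 1.86e-05) in implanted ECs and by 1.01 (adjusted p = 0.000436) in MMTV-PyMT ECs. In normal ECs P4ha1 was lower with cGAMP, at 7.98, 7.78 and 9.04 FPKM against 17.9, 17.3 and 23.5, and fell by 1.14 (SE 0.18, limma BH-adjusted p = 0.000219).

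Of 18 partners and receptors of basement membranes, 6 passed as higher and 6 as lower in MMTV-PyMT against normal ECs, 9 and 7 in implanted against normal ECs, and 5 and 6 in implanted against MMTV-PyMT ECs, where 56.5%, 48.7% and 45.5% of all genes tested passed. Bcam, a receptor of the laminin alpha-5 chain, was lower in both tumours. It measured 146, 154 and 161 FPKM in normal PBS, 32.1, 29.1 and 27.9 in MMTV-PyMT PBS and 18.1, 20.1 and 18.9 in implanted PBS libraries, and fell by 2.33 (SE 0.08, limma BH-adjusted p = 9.53e-11) and by 2.95 (adjusted p = 2.49e-12). Between the tumours it was lower in implanted ECs, where Lama5 was higher (0.48, limma BH-adjusted p = 0.0101). This difference of Lama5 no longer passed in 2 of 26 alternative settings. They were those without MMTV-PyMT PBS library 3 (0.37, limma BH-adjusted p = 0.0595) and without implanted PBS library 2 (0.36, adjusted p = 0.0613). Bcam is also made by mural and epithelial cells. Smoc1 and Smoc2, SPARC-related proteins of basement membranes, were highest in MMTV-PyMT ECs, like collagen IX. Smoc1 measured 2.23, 2.15 and 1.45 FPKM in normal PBS, 20.5, 26.2 and 24.1 in MMTV-PyMT PBS and 5.45, 4.46 and 5.82 in implanted PBS libraries, and rose by 3.07 (SE 0.27, limma BH-adjusted p = 1.67e-07) from normal to MMTV-PyMT ECs.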

How the data were processed

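RNA was sequenced from sorted ECs of 6 groups with 3 libraries each. Per the study's methods, the authors aligned paired reads with STAR 2.7 to mm10 and counted them with HTSeq (the strand setting is not given in the sources used here), and they deposited FPKM values of 16248 genes. Columns without a tissue in their name were taken as normal ECs, since the other columns name a tumour. Whole reads were recovered by matching the steps of the FPKM values to exon lengths of GENCODE M21, with a tolerance of 0.01 reads.

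The main test was limma 3.58.1 in R 4.3.3 on log2(FPKM + 1), with 1 mean per group over all 18 libraries, a variance trend and Benjamini-Hochberg adjustment over the 13983 genes with at least 1 FPKM in at least 3 libraries. It was tested on simulated data. Because of the added 1, fold changes of weakly expressed genes come out too small. The alternatives were a pseudocount of 0.1, no filter, a mean of at least 5 FPKM, scaling by total reads, quantile normalization, voom on recovered reads, no fold limit, only the groups compared, a replicate block, and each library left out. Counts past a threshold cover all 44 genes tested. Log2 changes are printed for up to 10 called genes per comparison with the largest change and for 16 core genes, for up to 5 called genes of another list, and, chosen after their values were seen, for Col8a1 and for genes called only without 1 library. The members and lists were chosen with earlier results of these data known. No 2 libraries of the same group agreed within sampling noise. The study states 3 mice per group and 3 independent experiments, without saying which library belongs to which experiment, so p-values cover the spread between mice and experiments together. The 6 adipocyte markers looked up lie outside the table, and 1 gene of the counts is not reported here.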

Additional observations from a re-analysis of the deposited data

Results flagged for a closer look

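Differences in the response to cGAMP between tissues, tested as an interaction in limma, singled out 2 genes. For Col8a1 the cGAMP effect in MMTV-PyMT minus that in normal ECs was 0.81 on the log2 scale (SE 0.18, limma BH-adjusted p = 0.0125), and in implanted minus normal ECs it was 1.26 (SE 0.18, limma BH-adjusted p = 0.00019). Behind these values, Col8a1 went from a mean of 22.3 ± 1.17 FPKM (SD, n = 3) to 13.0 ± 2.13 with cGAMP in normal ECs, from 4.58 ± 0.541 to 4.83 ± 0.810 in MMTV-PyMT ECs and from 6.43 ± 0.564 to 9.62 ± 1.18 in implanted ECs. For Col9a3 the effect in MMTV-PyMT minus that in normal ECs was -1.18 (SE 0.22, limma BH-adjusted p = 0.00586), with means of 2.78 ± 0.555 FPKM without and 6.87 ± 1.56 with cGAMP in normal ECs and with 12.9, 12.4 and 14.0 FPKM without and 13.7, 9.29 and 13.2 with cGAMP in the MMTV-PyMT libraries. Groups of 3 libraries are too small for a test of single outlying libraries.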

How the results depend on the processing

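The number of the 44 genes called was 1, 0 and 0 after cGAMP in normal, MMTV-PyMT and implanted ECs, 19 between MMTV-PyMT and normal ECs, 24 between implanted and normal ECs and 14 between implanted and MMTV-PyMT ECs, and 1, 1 and 0 for the interactions of MMTV-PyMT with normal, implanted with normal and implanted with MMTV-PyMT ECs. Without a fold limit, which by construction lets smaller changes in, the counts were 5 after cGAMP in normal ECs, 8 in implanted ECs, 32 in each tissue comparison under PBS, and 2 for the first interaction. Under scaling by total reads the interaction of implanted with normal ECs had 0 calls, and the cause was not tested. Leaving out 1 library gave 0 to 1 calls after cGAMP in normal ECs, 0 to 6 in implanted ECs, 1 to 5 for implanted minus normal and 0 to 3 for implanted minus MMTV-PyMT. The genes and libraries behind these are named in the text. Other settings gave 16 to 23, 20 to 27 and 11 to 19 calls in the tissue comparisons under PBS.

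No clear pairing of samples by replicate number was seen, with deviations of samples with the same number correlated between -0.29 and 0.26. Groups of 3 libraries are too small to exclude a modest shared effect. A fit with the replicate block gave the same counts of calls (1, 0, 0, 19, 24, 14, 1, 1 and 0), but Lamc1 between MMTV-PyMT and normal ECs (0.46, limma BH-adjusted p = 0.0635) and Col4a1 between the tumours (0.55, limma BH-adjusted p = 0.0514) no longer passed. Of 1660 values of 64 single gene results under alternatives, none changed sign, 1578 still passed and 82 did not. The 82 belong to 10 results, 61 of them with 1 library left out. Depth limits genes near 1 FPKM, such as Col27a1 and Col28a1.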
